A study of Homo sapiens with 6 samples.

Results

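The mevalonate pathway builds sterols from acetyl-CoA, and 9 of its enzymes, from the condensation of acetyl-CoA to the epoxidation of squalene, were followed by the symbols ACAT2, HMGCS1, MVK, PMVK, MVD, IDI1, FDPS, FDFT1 and SQLE. All 9 were found among the 37822 gene symbols of the deposited table and all 9 had enough counts to be tested. In Huh7 cells that overexpressed VPS72, 4 of the 9 mRNAs rose, by 10.9% to 17.5%, 0 fell and 5 did not pass the test (edgeR, adjusted over all genes tested, of which 0.421% rose). The 4 were HMGCS1, near the entry, and IDI1, FDPS and FDFT1, which make up the steps from the isoprene units to squalene. Among tested genes at least as abundant as MVK, 1.79% rose. The calls depended on the fit. Leaving out VPS72 replicate 1 or FLAG replicate 1 left 0 of the 9 past the threshold. So did removing a trend of change with abundance, and so did blocking by replicate number. In the other alternative fits 1 to 6 of the 9 passed.

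In this pathway acetyl-CoA is first built into HMG-CoA and mevalonate. Mevalonate is then phosphorylated and decarboxylated to isopentenyl diphosphate, and isopentenyl units are joined to farnesyl diphosphate, which is either committed to squalene and cholesterol or used for prenylated proteins, dolichol and ubiquinone. Hepatocytes are a main site of this synthesis, and transcription of its enzymes is raised by SREBP2, a membrane-bound factor released from the endoplasmic reticulum when sterols are low, which acts with the CCAAT-binding factor NF-Y and with Sp1.

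RNA was sequenced from the liver cancer line Huh7 (human hepatocellular carcinoma), in 3 libraries of cells infected with a lentivirus carrying VPS72 (genotype VPS72 overexpression) and 3 libraries of control cells infected with a FLAG lentivirus (genotype WT). The virus was packaged in HEK293T cells, and both groups were exposed to virus over 24 h, so the controls carry one too. VPS72 is a subunit of chromatin complexes that handle the histone variant H2A.Z, and the study linked it to lipid synthesis through ATF3, mTORC1 and SREBP1. Separate cultures are not stated for the replicates. The p-values therefore rest on the variation among 6 libraries, and that variation may be technical. The labels state neither the promoter that drives VPS72 nor whether the cells were pools or clones.

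Libraries held 23969324 to 29091824 counts in VPS72 and 21345279 to 25352335 in FLAG cells. VPS72 mRNA stood at 1161 ± 11.5 CPM (counts relative to the scaled library total) in VPS72 cells and at 23.9 ± 2.70 CPM in FLAG cells (SD, n = 3 each; log2 fold change 5.60 ± 0.06 SE). Of 14253 genes tested, 60 rose and 28 fell, and the median log2 fold change was -0.0038. The liver identity of the cells was checked with 9 hepatocyte markers, ALB and AFP among them, which together held 12981 to 13258 CPM in VPS72 and 11329 to 11676 CPM in FLAG libraries. Of these 9, 6 rose, with a list median of 0.22 on the log2 scale, so liver transcripts moved in the same direction as the sterol enzymes, and their part in the result was not tested. The 6 markers of the HEK293T packaging line, 6 of fibroblasts, 6 of immune cells and 5 of endothelium summed to at most 0.902, 16.4, 14.5 and 4.97 CPM in any library. In RNA from a whole culture, fewer cells of a kind and less RNA per cell cannot be told apart.

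Promoter sequences were taken by symbol from the RefSeq promoter table (GRCh38.p14) for 6 of the 9 genes. These gave 9 windows, since HMGCS1 and IDI1 have several annotated starts. ACAT2 had no entry there. FDFT1 and SQLE were left out of the search by their chromosome, which the counts over all windows kept, so nothing is said of their promoters. The CCAAT box bound by NF-Y (CCAAT or ATTGG, both strands counted) occurred in the 250 bases before at least 1 start in 5 of these 6 genes, HMGCS1, MVK, MVD, IDI1 and FDPS, and not in that of PMVK. Counted by window, 6 of the 9 held it, against 32.0% of all 35116 windows of this length. The window of MVK held 5 boxes, those of MVD and FDPS 3 each, and those of HMGCS1 0 and 2. The 3 windows of IDI1 held 0, 2 and 3. The windows of MVK and PMVK, and that of IDI1 with 3 boxes, lay wholly within exons of protein-coding genes in GENCODE release 29. Counts in these windows, PMVK's lack of a box included, therefore describe annotated exon sequence. GGGCGG, the GC box of Sp1, was present in all 9 windows, and in 42.6% of all windows. TCACCCCA, the inner part of the sterol regulatory element, was found in the MVK window alone of the 9, at 195 bases before the start, against 1.29% of all windows. The full sterol regulatory element of the LDL receptor promoter was in 0 of the 9 windows, and in 0.0342% of all. The builds behind the deposited counts are not resolved, so these coordinates are those of RefSeq and not of the files. The stretches below, which lie outside exons of protein-coding genes in GENCODE release 29, show how the boxes sit before HMGCS1, IDI1 and FDPS, which rose, and before MVD, which did not pass. They are written 5′ to 3′ on the gene's strand, with whole CCAAT or ATTGG boxes in capitals.

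HMGCS1, chr5:43313513-43313662, minus strand, from base 250 to base 101 before the start: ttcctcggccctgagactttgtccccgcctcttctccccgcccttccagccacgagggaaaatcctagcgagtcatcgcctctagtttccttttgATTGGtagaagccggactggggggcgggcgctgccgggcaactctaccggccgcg
MVD, chr16:88663111-88663341, minus strand, from base 250 to base 20 before the start: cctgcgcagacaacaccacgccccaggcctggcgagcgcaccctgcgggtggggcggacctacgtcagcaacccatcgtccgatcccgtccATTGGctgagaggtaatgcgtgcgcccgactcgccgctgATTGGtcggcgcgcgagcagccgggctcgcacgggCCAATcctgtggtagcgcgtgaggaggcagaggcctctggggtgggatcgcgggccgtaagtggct
IDI1, chr10:1049171-1049369, minus strand, from base 250 to base 52 before the start: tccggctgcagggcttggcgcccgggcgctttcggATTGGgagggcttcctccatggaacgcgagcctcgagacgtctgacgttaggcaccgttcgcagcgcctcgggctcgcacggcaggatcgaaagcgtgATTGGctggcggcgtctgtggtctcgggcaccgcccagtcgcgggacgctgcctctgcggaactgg
FDPS, chr1:155308616-155308747, plus strand, from base 250 to base 119 before the start: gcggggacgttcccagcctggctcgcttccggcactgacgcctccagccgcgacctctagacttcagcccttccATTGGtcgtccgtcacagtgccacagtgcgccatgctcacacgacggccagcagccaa

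A match is a description of these letters and not of binding. Boxes outside the printed stretches, or cut by their ends, are counted above and not shown.

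Together the 9 mRNAs took 2206, 2201 and 2189.8 CPM in the VPS72 libraries and 1947, 1982 and 1941 CPM in the FLAG libraries. The 2 groups did not overlap, and the sum averaged 2199 ± 8.31 CPM in VPS72 cells and 1956 ± 22.1 CPM in FLAG cells (SD, n = 3 each), 12.4% more with VPS72, given as a description with no test. The median log2 fold change of the 9 was 0.15, against 0.02 for the 2855 tested genes at least as abundant as MVK. With the trend of change with abundance removed, the median of the 9 was 0.09 and that of all tested genes -0.0267, against -0.0038 in the main fit.

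By edgeR's quasi-likelihood test with Benjamini-Hochberg adjustment over all genes tested, 4 of the 9 rose (threshold 0.05), where 0.421% of tested genes did and 1.79% of those at least as abundant as MVK. Falls were called for 0 of 9, against 0.196% of tested genes, and 0.617% were called in either direction. The log2 fold change was positive for 8 of the 9, against 48.8% of tested genes. At an unadjusted p of 0.05, 7 of 9 were higher in VPS72, against 6.03% of tested genes. These 7 also had no overlap between the groups, against 8.76% of tested genes and 20.8% of the abundant ones. The 4 calls depended on single libraries. All 4 were lost without VPS72 replicate 1 or without FLAG replicate 1, only IDI1 passed without VPS72 replicate 2, only FDFT1 without FLAG replicate 3, and FDPS and FDFT1 passed without VPS72 replicate 3, while the same 4 passed without FLAG replicate 2. Over all genes the calls numbered 88 with all libraries, 35 without VPS72 replicate 1 and 25 without FLAG replicate 1. In these 2 fits the log2 fold change of FDFT1 was 0.22 and 0.20, and that of HMGCS1 was 0.15 in both. With a trend of change with abundance removed 0 passed, and with scaling by library size alone 1 did, FDFT1. Among the 9, all but MVD and PMVK kept a positive log2 fold change in each of the 17 alternatives tried. These fits reuse the same libraries and are not independent. The fit that left VPS72 out of the library size returned the values of the main fit.

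**Figure D1:**
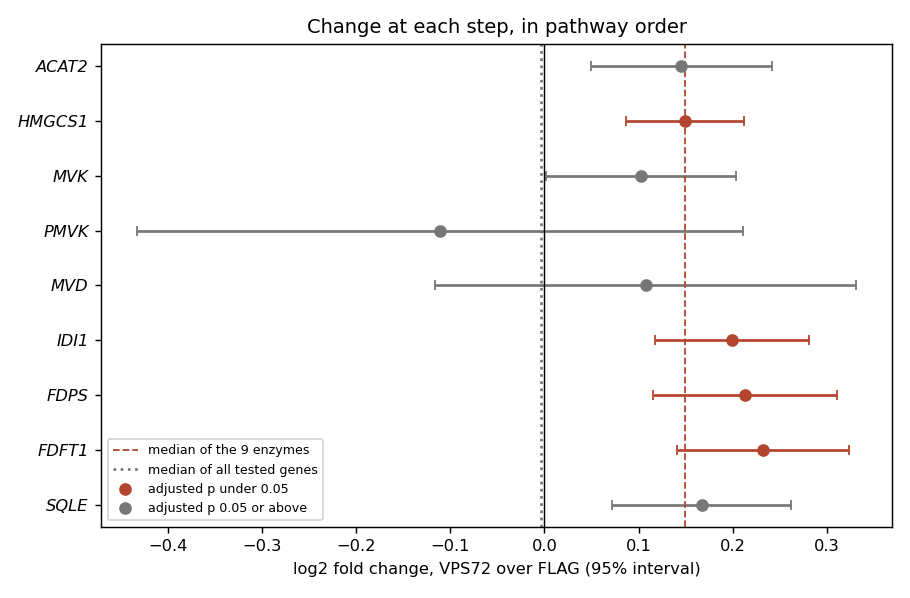
Log2 fold change of VPS72 over FLAG cells for each enzyme in pathway order, with its 95% interval, red where the adjusted p is under 0.05. The dashed line marks the median of the 9 enzymes (0.15), the dotted line that of all tested genes (-0.0038), and PMVK alone lies below 0.

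At the entry to the pathway, ACAT2, the cytosolic thiolase that joins acetyl-CoA into acetoacetyl-CoA, had 214, 214 and 210.1 CPM in VPS72 cells and 189.8, 205 and 182 CPM in FLAG cells. The groups did not overlap, and the VPS72 libraries lay closer together than the FLAG libraries, of which replicate 2 was the highest. The log2 fold change was 0.15 ± 0.05 (SE; edgeR, Benjamini-Hochberg adjusted p = 0.182), a difference of 10.6% with a 95% interval from 3.51% to 18.2%, and did not pass. It passed with DESeq2 (Benjamini-Hochberg adjusted p = 0.0459). Exons of ACAT2 lie opposite those of TCP1 over 397 bases, of SOD2 over 1106 bases and of the noncoding SOD2-OT1 over 1458 bases in GENCODE. Since the sources do not say whether counting used strand, part of the ACAT2 count could belong to these genes. TCP1, a chaperonin subunit, stood at 293 ± 3.75 CPM in VPS72 and 288 ± 3.66 CPM in FLAG cells, and SOD2, mitochondrial superoxide dismutase, at 172 ± 2.75 CPM in VPS72 and 176 ± 5.64 CPM in FLAG cells, and neither passed. SOD2-OT1 held 1.25 ± 0.545 CPM in VPS72 and 0.609 ± 0.328 CPM in FLAG cells and did not pass.

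HMGCS1, which adds acetyl-CoA to acetoacetyl-CoA and gives HMG-CoA, rose. It had 804, 792 and 808 CPM in VPS72 cells and 726, 739 and 702 CPM in FLAG cells, the highest raw level of the 9. All VPS72 libraries stood above all FLAG libraries, and the SD was 1.08% of the mean in VPS72 and 2.58% in FLAG cells. Its log2 fold change of 0.15 ± 0.03 (SE; edgeR, Benjamini-Hochberg adjusted p = 0.0298) is a rise of 10.9% (95% interval 6.22% to 15.8%). ACAT2 and HMGCS1 thus had nearly the same fold change, and the narrower interval was that of HMGCS1. With the trend of change with abundance removed, its log2 fold change was 0.07 ± 0.03 (SE; edgeR, Benjamini-Hochberg adjusted p = 0.328), and with upper quartile scaling its adjusted p was 0.0556. ACAT1, the mitochondrial thiolase related to ACAT2, stood at 37.1 ± 0.598 CPM in VPS72 and 38.9 ± 0.841 CPM in FLAG cells and did not pass.

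**Figure D2:**
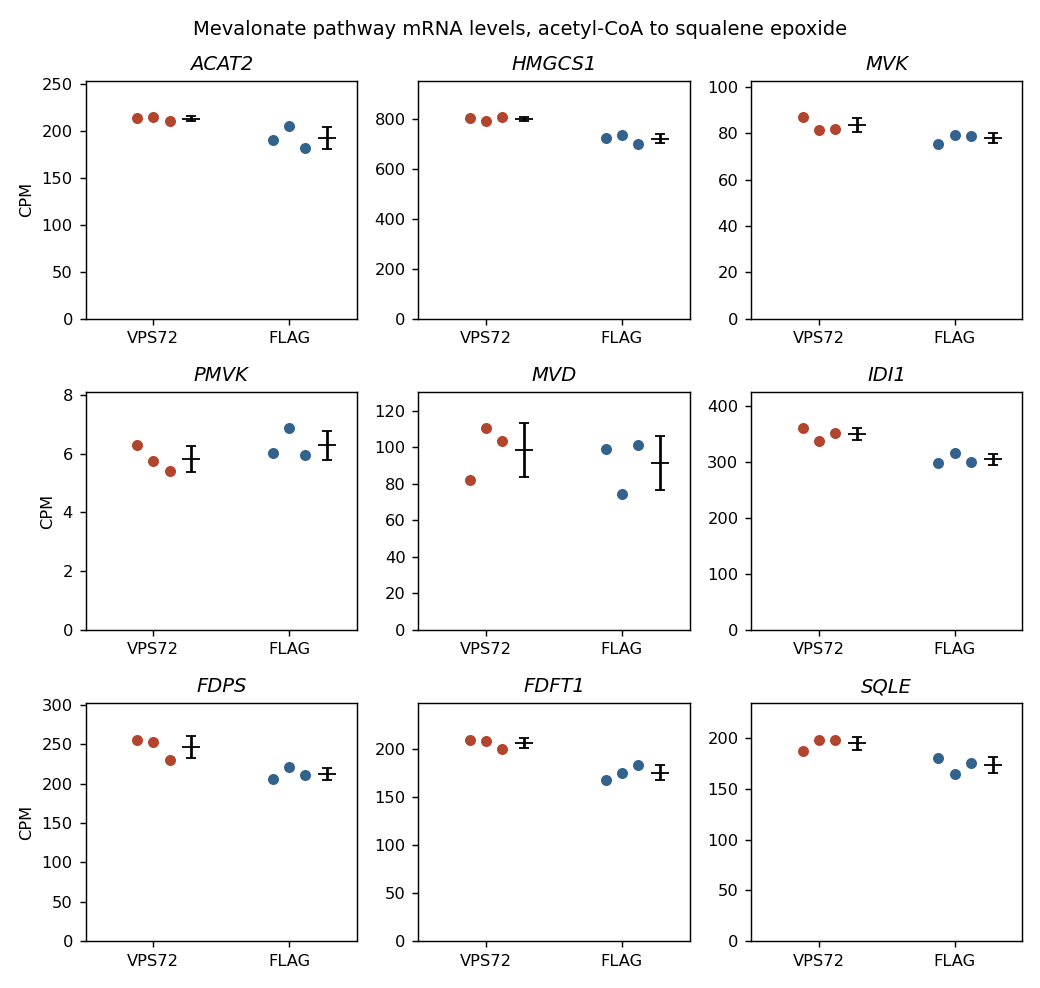
CPM of each enzyme in every library (points), with the mean and SD beside them, VPS72 cells left and FLAG cells right, each panel on its own axis from 0. In 7 panels the 3 VPS72 points lie above the 3 FLAG points; those of MVD and PMVK overlap.

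The 3 enzymes that turn mevalonate into isopentenyl diphosphate did not pass. MVK, mevalonate kinase, had 87.0, 81.7 and 82.1 CPM in VPS72 cells and 75.5, 79.2 and 79.0 CPM in FLAG cells. These values do not overlap, but the gap between the lowest VPS72 and the highest FLAG library was small. Its log2 fold change was 0.10 ± 0.05 (SE; edgeR, Benjamini-Hochberg adjusted p = 0.424), or 7.35% with a 95% interval from 0.0964% to 15.1%. MVK shares its promoter region with MMAB, an enzyme of cobalamin metabolism transcribed the other way, and the annotated exons overlap by 69 bases. MMAB had 46.8 ± 4.67 CPM in VPS72 and 46.7 ± 4.68 CPM in FLAG cells and did not pass, with a log2 fold change of 0.00 ± 0.08 SE. The difference between MVK and MMAB was not tested.

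PMVK, phosphomevalonate kinase, was the least abundant of the 9, with 181, 152 and 128 counts in VPS72 and 155, 175 and 128 counts in FLAG libraries. In CPM these were 6.29, 5.75 and 5.40 in VPS72 and 6.04, 6.86 and 5.95 in FLAG cells. The groups overlap, and the highest value was in FLAG replicate 2. The log2 fold change of -0.11 ± 0.15 (SE; edgeR, Benjamini-Hochberg adjusted p = 0.854) has a 95% interval from -25.9% to 15.7%, which includes the 14.8% by which IDI1 rose. PMVK's share of the summed CPM was 0.247% to 0.285% in VPS72 and 0.307% to 0.346% in FLAG libraries.

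MVD, mevalonate diphosphate decarboxylase, spread more than the others. It had 82.0, 110.4 and 103 CPM in VPS72 cells and 99.0, 74.4 and 101 CPM in FLAG cells. One library of each group, VPS72 replicate 1 and FLAG replicate 2, was low, and the groups overlap. It averaged 98.6 ± 14.8 CPM in VPS72 and 91.5 ± 14.9 CPM in FLAG cells (SD, n = 3 each). The SD in FLAG cells was 16.2% of the mean, where the other 8 enzymes had 1.08% to 8.01% over both groups. The log2 fold change was 0.11 ± 0.11 (SE; edgeR, Benjamini-Hochberg adjusted p = 0.769), turned to -0.02 without FLAG replicate 2 and was 0.23 without VPS72 replicate 1 and 0.02 without VPS72 replicate 2.

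The low libraries of MVD were also low for GC-rich transcripts as a set. MVD's longest transcript has a GC content of 65.6%, the highest of the 9, where the others range from 40.2% in HMGCS1 to 59.5% in PMVK. In log2 CPM relative to the group mean, MVD lay at -0.25, 0.17 and 0.08 in VPS72 replicates 1 to 3 and at 0.13, -0.28 and 0.16 in FLAG replicates 1 to 3. The median of the 88 tested genes above 65% GC and at or above a log2 CPM of 5 was -0.21, 0.09 and 0.11 in the VPS72 and 0.08, -0.23 and 0.15 in the FLAG replicates. MVD is itself among these 88. The 1113 such genes at or below 40% GC had medians between -0.03 and 0.03 in every library. After removal of a trend with GC content and transcript length in each library, MVD's largest deviation was -0.11, and its log2 fold change was 0.15 ± 0.05 (SE; edgeR, Benjamini-Hochberg adjusted p = 0.198), with the SE down to 0.05 from 0.11. SQLE, at 46.5% GC, was also low in VPS72 replicate 1 and FLAG replicate 2, at -0.06 and -0.08, and lay at -0.07 and -0.10 there with that trend removed. HMGCS1, IDI1, FDPS and FDFT1 passed in that fit as well, with Benjamini-Hochberg adjusted p from 0.00144 to 0.0104 by edgeR.

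**Figure D3:**
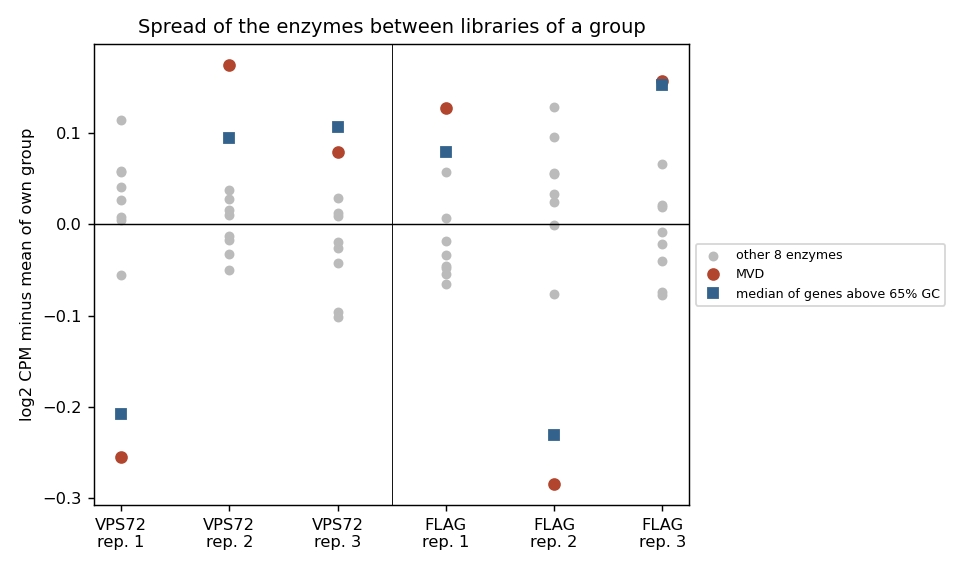
Log2 CPM of each enzyme minus the mean of its own group, in every library. MVD (red) lies low in VPS72 replicate 1 and FLAG replicate 2, while the other 8 enzymes (grey) stay between -0.10 and 0.13. The median of 88 tested genes above 65% GC, MVD among them (blue squares), is low in the same libraries.

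The steps from isopentenyl diphosphate to squalene held the remaining 3 calls. IDI1, the isomerase that gives dimethylallyl diphosphate, had 359.6, 338 and 352 CPM in VPS72 cells and 297, 316 and 299.9 CPM in FLAG cells. Every VPS72 library exceeded every FLAG library. It rose by 14.8% (95% interval 8.47% to 21.5%), a log2 fold change of 0.20 ± 0.04 (SE; edgeR, Benjamini-Hochberg adjusted p = 0.0273). IDI2, its muscle paralogue, was too low to be tested, and the antisense transcript IDI2-AS1, which shares 173 exon bases with IDI1, held 1.06 ± 0.261 CPM in VPS72 and 1.27 ± 0.277 CPM in FLAG cells.

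FDPS, farnesyl diphosphate synthase and the target of nitrogen bisphosphonates, had 256, 253 and 230.3 CPM in VPS72 cells and 205, 221 and 211 CPM in FLAG cells. The groups did not overlap, and VPS72 replicate 3 was nearest to the FLAG values. It rose by 15.9% (95% interval 8.34% to 24.0%), a log2 fold change of 0.21 ± 0.05 (SE; edgeR, Benjamini-Hochberg adjusted p = 0.0489), just inside the threshold. With upper quartile scaling the adjusted p was 0.0620 and with library size alone 0.0979. FDPS has 8 pseudogenes in the table, and these summed to 62 to 67 counts in VPS72 and 58 to 79 counts in FLAG libraries, where FDPS itself had 5456 to 7370 counts in VPS72 and 4541 to 5633 in FLAG libraries. RUSC1-AS1, an antisense RNA that shares 476 exon bases with FDPS, held at most 1.44 CPM in any VPS72 and 2.06 CPM in any FLAG library.

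FDFT1, squalene synthase, which commits farnesyl diphosphate to sterols, had the smallest p of the 9. Its levels were 209.6, 208 and 199.8 CPM in VPS72 cells and 167, 175 and 183 CPM in FLAG cells. All VPS72 libraries stood above all FLAG libraries, and FLAG replicate 1 was the lowest. FDFT1 rose by 17.5% (95% interval 10.2% to 25.2%), a log2 fold change of 0.23 ± 0.04 (SE; edgeR, Benjamini-Hochberg adjusted p = 0.0212). It passed in 3 of the 6 fits that left out 1 library, against 1 for HMGCS1 and 2 each for IDI1 and FDPS.

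SQLE, squalene epoxidase, the flavoenzyme that oxidises squalene and the target of terbinafine in fungi, had 187, 198.5 and 198.7 CPM in VPS72 cells and 180.5, 164 and 176 CPM in FLAG cells. The groups did not overlap, with VPS72 replicate 1 and FLAG replicate 2 the lowest of their groups, as for MVD. The log2 fold change of 0.17 ± 0.04 (SE; edgeR, Benjamini-Hochberg adjusted p = 0.121), a difference of 12.3% with a 95% interval from 5.13% to 19.9%, did not pass. It passed with DESeq2 (adjusted p = 0.0146) and without a filter on low counts (edgeR, adjusted p = 0.0198). The 95% intervals of ACAT2, SQLE and the 4 enzymes that rose overlap, and differences between their fold changes were not tested.

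**Figure D4:**
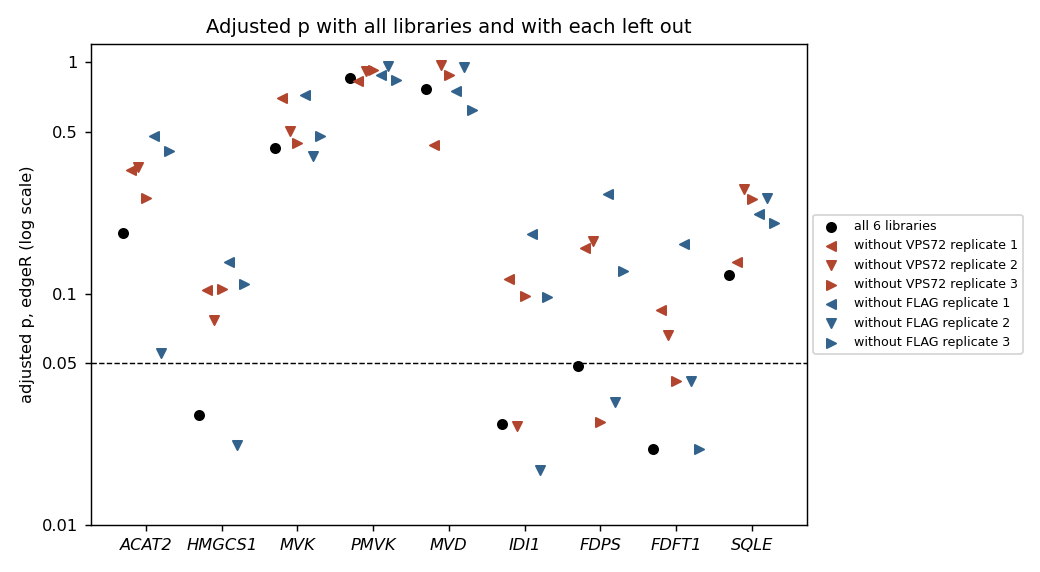
Adjusted p of each enzyme (edgeR, Benjamini-Hochberg, log axis) with all 6 libraries (black circles) and with each VPS72 (red) or FLAG (blue) library left out; the dashed line is 0.05. The 4 enzymes under the line with all libraries move above it without VPS72 replicate 1 or FLAG replicate 1.

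Levels can be compared between enzymes only per transcript length, here as CPM per kilobase of the longest GENCODE transcript. In VPS72 cells the order was HMGCS1 with 229 ± 2.46, FDPS with 167 ± 9.48, IDI1 with 104 ± 3.31, FDFT1 with 77.4 ± 1.97, ACAT2 with 67.0 ± 0.763, SQLE with 65.8 ± 2.19, MVD with 54.1 ± 8.12, MVK with 30.4 ± 1.08 and PMVK with 4.54 ± 0.349 CPM per kilobase (SD, n = 3 each). The order was the same in FLAG cells, at 206 ± 5.32 for HMGCS1 down to 4.91 ± 0.393 for PMVK. ACAT2 and SQLE overlapped over the libraries in both groups, and FDFT1 and ACAT2 in FLAG cells only. The order in FLAG cells was the same with the median transcript length, which gave 169 for FDPS, 88.2 for FDFT1 and 44.0 CPM per kilobase for MVK. The median and the longest length differ for these genes alone, so the values of the others could not change. HMGCS1 alone took 36.0% to 36.9% of the summed CPM in VPS72 and 36.2% to 37.3% in FLAG libraries.

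Between replicates of a group the 9 enzymes deviated in both directions in every library. The library medians of their deviations from the group mean lay between -0.02 and 0.03 in VPS72 and between -0.03 and 0.03 in FLAG libraries on the log2 scale. Of the 9, 7 lay above their group mean in VPS72 replicate 1 and 6 in FLAG replicate 2, and 6 lay below it in FLAG replicate 1.

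After squalene epoxide, of 11 enzymes from lanosterol synthesis to cholesterol, 2 rose, 0 fell and 9 did not pass, with a median log2 fold change of 0.15, and 8 of the 11 had no overlap between groups. Over all tested genes 0.421% rose and 8.76% lay without overlap above FLAG, and among those at least as abundant as MVK 1.79% rose and 20.8% had no overlap. MSMO1, a sterol demethylating oxidase, stood at 259 ± 9.32 CPM in VPS72 and 214 ± 6.53 CPM in FLAG cells, and DHCR7, which completes cholesterol, at 552 ± 22.1 CPM in VPS72 and 471 ± 13.2 CPM in FLAG cells. Of the 11, 1 passed without FLAG replicate 1 or with the abundance trend removed, 4 with the GC and length trend removed or with no filter, and 5 with DESeq2. Of 13 genes of the isoprenoid branches outside sterol synthesis 0 rose and 0 fell by edgeR (Benjamini-Hochberg), and 0 passed the threshold with DESeq2. At an unadjusted p of 0.05 by edgeR, 2 of them were higher (6.03% over all tested genes) and 0 lower. Their median log2 fold change was -0.02, and 4 of the 13 lay without overlap above FLAG, against 8.76% of tested genes and 20.8% of the abundant ones. Most of the 13 were less abundant than MVK, so the latter share is not a like background for this list. ICMT, which methylates prenylated proteins, had 144 ± 2.36 CPM in VPS72 and 134 ± 2.99 CPM in FLAG cells, and NUS1, a subunit of the dolichol-forming transferase, 98.9 ± 4.36 CPM in VPS72 and 100.1 ± 4.16 CPM in FLAG cells. The difference between the branches was not tested.

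Upstream, of 3 genes that supply cytosolic acetyl-CoA 1 rose, ACLY, ATP citrate lyase, at 489 ± 12.1 CPM in VPS72 and 427 ± 11.1 CPM in FLAG cells, and 2 did not pass. Of 11 genes of SREBP and its sterol-regulated control 1 rose, 0 fell and 10 did not pass. INSIG1, which rose, holds the SREBP escort SCAP in the endoplasmic reticulum and is itself an SREBP target. It had 177 ± 10.6 CPM in VPS72 and 148 ± 6.37 CPM in FLAG cells. Over all tested genes 0.421% rose, and 1.79% of those at least as abundant as MVK. At an unadjusted p of 0.05, 2 of the 11 were higher and 1 was lower, against 11.5% of tested genes in either direction. The lower 1 was MBTPS1, named after its values were seen, at 79.6 ± 2.91 CPM in VPS72 and 88.2 ± 2.83 CPM in FLAG cells, without overlap. The ACLY and INSIG1 calls were both lost without VPS72 replicate 1, without FLAG replicate 1 and with the abundance trend removed, and that of INSIG1 also without VPS72 replicate 2 or FLAG replicate 3. SREBF2, which encodes SREBP2 and was singled out after its values were seen, had 238, 243 and 224 CPM in VPS72 cells and 233, 232 and 236 CPM in FLAG cells. These groups overlap, and the log2 fold change was 0.01 ± 0.04 (SE; edgeR, Benjamini-Hochberg adjusted p = 0.951). These are mRNA levels, and SREBP2 processing was not measured.

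Among 9085 other tested genes with a mean of at least 10 CPM, those whose level over the 6 libraries lay closest to the mean profile of the 9 enzymes were SNX27, CTSC, TMBIM6, RPN2 and NADK2. Likeness was the root mean square distance in centred log2 CPM, which was 0.0116 for SNX27 and 0.0157 for NADK2, against 0.0306 for HMGCS1, 0.150 for PMVK and 0.194 for MVD, which are part of that mean. SNX27, a sorting nexin, stood at 139.8 ± 2.65 CPM in VPS72 and 126 ± 1.72 CPM in FLAG cells, and RPN2, a subunit of the oligosaccharyltransferase, at 401 ± 1.87 CPM in VPS72 and 367 ± 7.18 CPM in FLAG cells. None of these 5 passed by edgeR (Benjamini-Hochberg adjusted p from 0.0706 to 0.195).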

How the data were processed

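The authors deposited estimated counts per gene symbol as whole numbers, not normalized, for 3 VPS72 and 3 FLAG libraries. Per the submitters' processing notes, STAR, RSEM and limma and the builds hg19 and hg38 were used, with no role given. Per the labels' protocols, RNAzol was used for extraction and KAPA RNA HyperPrep for the libraries. For annotation and strand use, no source used here gives an answer. Genes were filtered with filterByExpr (minimum count 10, minimum total 15), which left 14253 genes with 99.925% of counts, scaled by TMM and compared by edgeR 4.0.16 (R 4.3.3) with Benjamini-Hochberg adjustment over all of them. SE is the log2 fold change divided by the square root of F. CPM uses TMM-scaled totals. The fit was tested on simulated data with the same dispersion for every gene and libraries that differed only in size and the changes put in. That test does not cover the differences between libraries seen here. A value tested alone by exact permutation of 3 against 3 could not fall below p = 0.1. Libraries of a group differed by more than sampling noise (chi-square per degree of freedom 4.70 to 7.69). Transcript lengths and GC content came from GENCODE release 29, found for 98.01% of tested genes. Of each neighbouring list, up to 4 members past the threshold, or else the 2 most abundant, were named, apart from a gene that is not reported here. So were genes overlapping a member and the 5 genes nearest to the members' mean profile. The members and lists were chosen with earlier results of these data known, and the 9 members do not cover every step of the pathway.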

Additional observations from a re-analysis of the deposited data

How the results depend on the processing

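Genes past the threshold over all genes numbered 88 with all 6 libraries, 264 without a filter on low counts, 249 with DESeq2 1.42.0, 56 with the abundance trend removed, 214 with the GC and length trend removed, and 25 to 100 with 1 library left out. Scaling moved the directions from 60 higher and 28 lower to 32 and 54 by library size alone, to 10 and 46 without the abundance trend and to 44 and 32 by upper quartile. The 4 enzymes past the threshold became 1 by library size alone, 2 by upper quartile, 0 without the abundance trend, and 0 to 4 with 1 library left out. DESeq2 gave 6 and no filter 5. The median log2 fold change of the enzymes was 0.15 with all libraries, 0.0921 without the abundance trend and 0.15 to 0.18 with 1 library left out, and the log2 ratio of their summed CPM was 0.17, or 0.14 by library size alone. MVD, at 0.11 with all libraries, turned to -0.0213 without FLAG replicate 2 and lay at 0.2313 without VPS72 replicate 1. The cause of these shifts was not tested. Over all tested genes the deviations of same-numbered libraries had r = -0.05, 0.03 and 0.06 for numbers 1 to 3. Such values cannot exclude pairing. VPS72 replicate 1 and FLAG replicate 2, both low for GC-rich genes, had r = 0.08. That was the highest over all pairs of a VPS72 and a FLAG library, of which the lowest was -0.11. The main fit did not take the numbers as pairs, and whether they are pairs is not settled. With the replicate number as a block, 32 genes and 0 enzymes passed, and the ACLY and INSIG1 calls were lost too, with fewer residual degrees of freedom. limma-voom 3.58.1 and the stricter filter (1 CPM in 3 libraries) kept the same 4 enzymes. Depth limits PMVK, with 128 to 181 counts per library.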
